A study of Mus musculus with 8 samples.

Results

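The genes described here are the caspases and lytic death executors of white adipocytes: the apoptotic caspases Casp9, Casp8 and Casp6, the inflammatory caspases Casp1, Casp4 and Casp12, the pore-forming pyroptosis executor Gsdmd and the necroptosis executor Mlkl. These 8 genes were taken by their symbols from the 30387 genes of the series, and each was found in 1 line of the table. RNA was sequenced from white adipocytes of the epididymal fat pad, taken from WT (wild-type) mice and Ad-Yap/Taz-KO mice (KO below) after 4 weeks of standard diet (SD, normal chow in the labels) or high-fat diet (HFD). In KO mice, Cre recombinase under the adiponectin promoter (Adipoq-Cre) deletes floxed alleles of Yap and Taz (Yap1 and Wwtr1 in the table) in adipocytes throughout life. The labels call the controls WT, and whether they carried floxed alleles is not given for this line in the sources used here. The description of the series has the diets begin at week 5 of age, and the methods of the study give a start 1 week later. There were 4 groups, WT on SD, KO on SD, WT on HFD and KO on HFD, with 2 libraries each. The labels do not say whether the libraries of a group came from separate mice, but the study describes them as separate animals.

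Caspases are proteases that lie idle as precursors and act once they are cut or brought together. In apoptosis, the initiator Casp9 is activated on the apoptosome after mitochondria release cytochrome c, the initiator Casp8 is activated at death receptors, and executioners such as Casp6 then cleave the substrates that dismantle the cell. The lytic routes end in a broken plasma membrane: Casp1 and Casp4 cleave Gsdmd, whose freed part forms pores (pyroptosis), and the kinase Ripk3 phosphorylates Mlkl, which permeabilizes the membrane (necroptosis). Casp8 also restrains necroptosis by cleaving the kinases upstream of Mlkl. RNA levels measure neither the assembly of these complexes nor cleavage or phosphorylation. Death of adipocytes in obese fat is followed by the gathering of macrophages around the dead cells, and macrophages express inflammasome genes strongly.

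The 6 caspase genes share the stretch that codes for their active site. The 27 bases around the codon of the catalytic cysteine are shown because they define the family that the 8 genes have in common, apart from Gsdmd and Mlkl, which are not proteases. They come from the GENCODE vM21 transcripts of GRCm38, read 5′ to 3′ on the coding strand, with the cysteine codon in capitals.
Casp9: ttcatccaggccTGCggtggtgagcag
Casp8: ttcattcaggctTGCcaaggaagtaac
Casp6: atcatccaggccTGTcggggtagccag
Casp1: attattcaggcaTGCcgtggagagaaa
Casp4: attgtgcaggccTGCagaggtgggaac
Casp12: atcatgcaggccTGCagaggcagatat
Between 16 and 20 of the 27 bases were equal in each pair of genes, and only Casp6 used the codon TGT. The stretch lies within exon 9 of 10 of Casp8, at chr1:58844607-58844633 on the plus strand. In the other caspases an exon boundary interrupts it, between exons 6 and 7 in Casp9 and Casp1, between exons 5 and 6 in Casp6 and Casp4, and between exons 7 and 8 in Casp12.

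The deposited values, called normalized counts here, are gene counts that were scaled by a factor for each library and then rounded. The libraries held 14.0 to 22.3 M reads on genes, estimated from the spacing of the low values, and the 8 genes had between 41.5 and 1757 reads in a library. All genes with a mean of at least 5 were fitted together (18800 genes, the 8 included) with limma on log2(value + 1), a scale that understates the fold changes of low genes. To be called, a gene needed a p of at most 0.05 after Benjamini-Hochberg adjustment and at least a 1.5-fold difference, which is 0.59 on the log2 scale, up or down. An exact two-sided permutation test of 2 libraries against 2 cannot go below p = 0.333. Every p below is therefore a limma p, adjusted over all genes tested unless it is called unadjusted. The libraries of WT on HFD were closer to each other than those of any other group, most clearly for genes with means of 1000 to 5000. There the squared differences were 5.64 times the counting noise, against 17.0 to 55.6 times in the other 3 groups. For means of 100 to 500 they were 5.36 times, against 6.53 to 14.1. For means of 5 to 20 they were 5.67 times, against 5.78 to 8.56. The WT HFD libraries were kept as 2, and averaging them to 1 was an alternative.

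Of the targeted genes, Wwtr1 had 5594 and 4743 normalized counts in WT on SD, 2441 and 1957 in KO on SD, 7121 and 6807 in WT on HFD and 2060 and 2707 in KO on HFD. Yap1 had 2776 and 2717, 1669 and 1699, 2468 and 2333, and 1549 and 2068 in the same order. Both genes were lower in each KO library than in each WT library of the same diet, and between them 3 of the 4 differences passed the test (limma adjusted p = 0.00097 and 3.1e-05 for Wwtr1 on SD and HFD, 0.024 for Yap1 on SD), whereas Yap1 on HFD did not (0.059). The SD call of Wwtr1 was lost without a mean-variance trend (0.084). That of Yap1 was lost without the trend (0.21), with no filter on low values (0.084), in the fit of the compared groups alone (0.053), with the WT HFD libraries averaged to 1 (0.075) and in each of the 4 fits without 1 library (0.070 to 0.17). On HFD the log2 fold change of Yap1 was -0.42, and it was -0.63 without the second KO HFD library. With only genes of a mean of at least 50 its limma adjusted p was 0.048, with a fold still under the limit of a call. A value over all exons of a gene does not show which exons were deleted.

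The defining markers of adipocytes were high in all libraries, and those of other cells were present too. The sum of 10 adipocyte markers (Adipoq, Plin1 and others) was 211752 and 218344 normalized counts in WT on SD, 169777 and 245934 in KO on SD, 384146 and 375938 in WT on HFD and 190080 and 95513 in KO on HFD. The sum of 16 macrophage markers was 6125 and 5982, 35000 and 19872, 2858 and 2874, and 40007 and 36888 in the same order. Among the macrophage markers only Fcgr1 was ever listed at 0, in 1 library of WT on HFD. Of these 16 markers, 14 rose in KO on HFD and 13 in KO on SD against WT, and 13 fell with HFD in WT. Of the 10 adipocyte markers, 9 fell in KO on HFD against WT and none was called on SD (0 in limma, and 0 with an unadjusted p under 0.05). Fibroblast and progenitor markers summed to 9037 and 9369 in WT on HFD and to 34242 and 39075 in KO on HFD, with 6 of 8 called higher. Of 6 endothelial markers, 2 were higher in KO on HFD and 4 lower with HFD in WT, and of 5 mesothelial markers 1 was higher and 1 lower in KO on HFD. Lymphocyte and neutrophil markers were low, with sums of 13 to 86 and 12 to 78, and 1 of 3 tested in each list was higher in KO on HFD. In such mixed samples a change in the share of a cell type and a change of RNA per cell cannot be told apart.

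Within WT adipocytes on SD, Casp4 and Casp8 had the highest levels per length among the 8 genes. Per kilobase of exon (all exons of the gene joined), the level was 365 and 343 normalized counts for Casp4, 342 and 335 for Casp8, 172 and 199 for Mlkl and 91.7 and 105 for Casp12. The other genes followed with 50.5 and 65.2 for Gsdmd, 54.1 and 48.7 for Casp9, 56.8 and 32.7 for Casp1 and 18.1 and 40.8 for Casp6. In this order Gsdmd, Casp9 and Casp1 overlapped with each other, as did Casp1 and Casp6. By the length of the longest transcript, Casp4 stood further above Casp8, with means of 691 and 379 normalized counts per kilobase. The order differed in other groups. Gsdmd had the lowest level per kilobase of the 8 genes in WT on HFD (16.4 and 18.9), whereas in KO on HFD it reached 101 and 142, above Casp12 (66.4 and 59.4) and Casp9 (44.3 and 46.0).

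**Figure D1:**
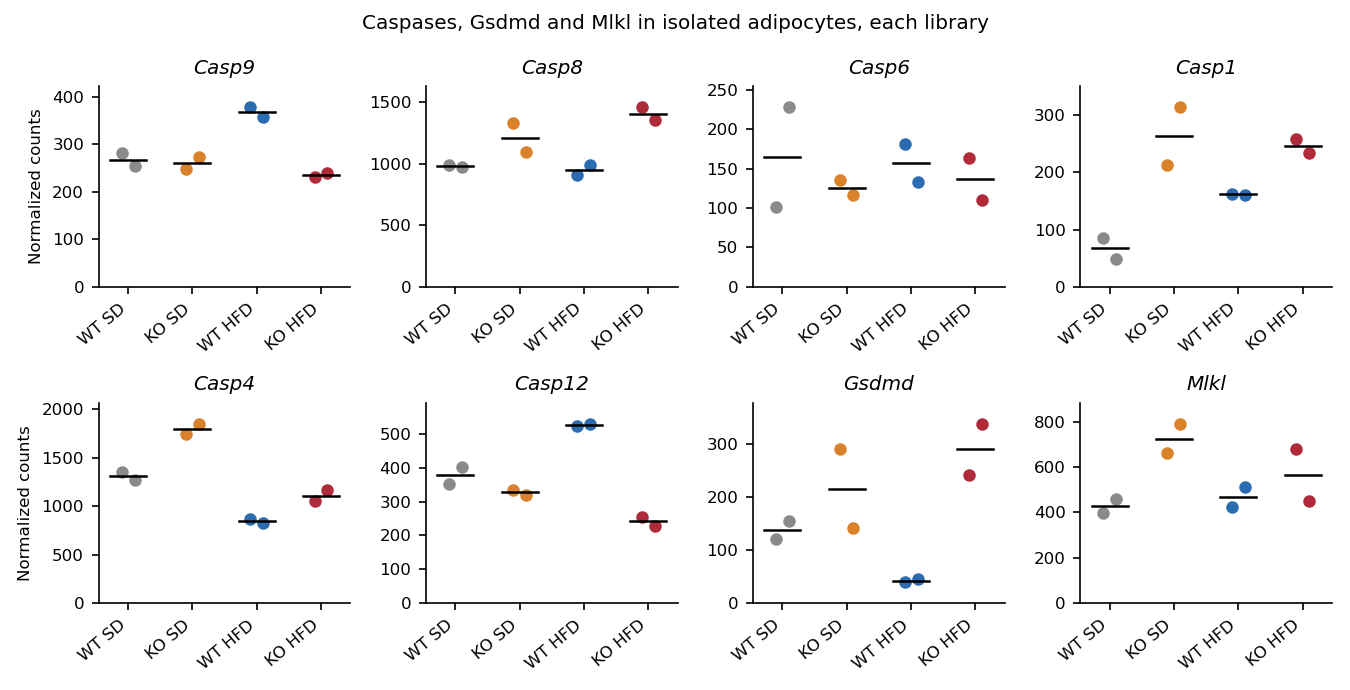
Normalized counts of the 8 genes in each library (points) with the mean of each group (bars), for WT and Ad-Yap/Taz-KO (KO) on SD and HFD, each panel with its own axis from 0. Gsdmd is lowest in WT on HFD (39 and 45) and Casp12 is highest there (524 and 530), and both differ clearly in KO on HFD.

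To see whether loss of YAP and TAZ goes along with changed levels of the apoptotic initiators, Casp9 and Casp8 were compared between genotypes. Casp9 (ENSMUSG00000028914, chr4:141793612-141815976, plus strand, GRCm38), the apoptosome caspase, had 281 and 253 normalized counts in WT on SD, 248 and 273 in KO on SD, 377 and 357 in WT on HFD and 230 and 239 in KO on HFD. The libraries of WT on HFD were the highest and those of KO on HFD the lowest of all 8, while the genotypes overlapped on SD. On HFD, Casp9 was 1.56-fold lower in KO than in WT (log2 fold change -0.64, SE 0.21, limma adjusted p = 0.031). On SD the log2 fold change was -0.04 (adjusted p = 0.96), and the test of the difference between the diets did not pass (interaction -0.61, SE 0.30, adjusted p = 0.17). The HFD call was lost under scaling to equal totals (log2 fold change -0.26, adjusted p = 0.38), when the WT HFD libraries were averaged to 1 (0.14) and in each of the 4 fits without 1 library of either HFD group (0.078 to 0.15). The gene shares 94 bp of exon, 1.81% of its exon length, with Cela2a and Ctrc on the opposite strand, and the sources used here do not say whether strand was used in counting.

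Casp8 (ENSMUSG00000026029, chr1:58795374-58847503, plus strand), the death receptor caspase, had 990 and 970 normalized counts in WT on SD, 1326 and 1093 in KO on SD, 904 and 991 in WT on HFD and 1456 and 1357 in KO on HFD. It was above the WT libraries in each KO library on both diets. On HFD it was 1.48-fold higher (log2 fold change 0.57, SE 0.16), with a limma adjusted p of 0.016 but a fold just under the limit of a call. The log2 fold change was 0.96 under scaling to equal totals, 0.72 after quantile normalization and 0.62 without the second KO HFD library, and all 3 passed the test. The adjusted p rose above 0.05 without the trend (0.076), with the WT HFD libraries averaged to 1 (0.10) and without the first (0.13) or the second (0.069) WT HFD library. On SD the log2 fold change was 0.30 (SE 0.16, adjusted p = 0.38). HFD against SD gave -0.05 in WT (adjusted p = 0.86) and 0.22 in KO (0.54), neither called.

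Casp6 (ENSMUSG00000027997, chr3:129901425-129914103, plus strand), an executioner that cleaves nuclear lamins, had the largest SE of the 8 genes. It had 101 and 228 normalized counts in WT on SD, 136 and 116 in KO on SD, 181 and 133 in WT on HFD and 164 and 110 in KO on HFD. All groups overlapped, since the libraries of WT on SD were the lowest and the highest of all 8. Its log2 fold changes between -0.27 and 0.10 had an SE of 0.38 each and none passed the test (limma adjusted p = 0.71 to 0.97 in the 4 comparisons of groups). At this spread changes of Casp6 as small as these could not be detected, which does not show that there were none.

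The inflammatory caspases lie side by side on chromosome 9. Casp1 (ENSMUSG00000025888, chr9:5298517-5307265), Casp4 (ENSMUSG00000033538, chr9:5308828-5336783) and Casp12 (ENSMUSG00000025887, chr9:5345430-5373032) are all on the plus strand, with gaps of 1562 bp and 8646 bp between them and no other annotated gene in between. In no comparison were they called together in the same direction, and differences between them were not tested. Casp1 and Casp4 were both higher in each KO library than in each WT library of the same diet, whereas Casp12 was lower. Casp1 rose in KO on SD and with HFD in WT, Casp4 fell with HFD in both genotypes, and Casp12 fell in KO on HFD.

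Casp1, which matures interleukin-1 beta and cleaves Gsdmd within inflammasomes, had 85 and 49 normalized counts in WT on SD, 213 and 314 in KO on SD, 163 and 160 in WT on HFD and 259 and 235 in KO on HFD. WT on SD was the lowest group, and on each diet both KO libraries were above both WT libraries. On SD, Casp1 was 3.96-fold higher in KO than in WT (log2 fold change 1.99, SE 0.32, limma adjusted p = 0.0023). It was the only one of the 8 genes called in this comparison, where 4.71% of all genes tested were called. Among 12 alternatives the call was lost only in the fit without a mean-variance trend (adjusted p = 0.065), and leaving out 1 library gave 1.59 to 2.38. The HFD libraries gave 0.61 (SE 0.32, adjusted p = 0.16). The sum of macrophage markers was also higher in both KO libraries on SD, 35000 and 19872 against 6125 and 5982 in WT. Within groups, the library with the higher sum had the higher Casp1 value in WT on SD and in KO on HFD and the lower one in KO on SD and in WT on HFD. The part of macrophages in the difference was not tested.

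In WT mice HFD raised Casp1 2.48-fold (log2 fold change 1.31, SE 0.32, limma adjusted p = 0.015), whereas the macrophage marker sum was lower in WT on HFD (2858 and 2874) than in WT on SD. In KO mice the log2 fold change was -0.07 (adjusted p = 0.94). The interaction of genotype and diet was -1.38 (SE 0.45) with an adjusted p of 0.052 and was not called. It passed under the higher filter, a mean of 50 or more (0.043), and without the first KO SD library (-1.66, 0.029), and in no other alternative or fit without 1 library. The WT diet call was lost with no filter on low values (0.051), with scaling to equal totals (0.058), without the trend (0.083) and with the WT HFD libraries averaged to 1 (0.11). Leaving out the second WT SD library gave a log2 fold change of 0.92 (0.12), and leaving out the first or the second WT HFD library gave 1.296 (0.090) or 1.322 (0.095).

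Casp4, known in mice also as caspase-11 and activated by intracellular lipopolysaccharide, had 1356 and 1273 normalized counts in WT on SD, 1750 and 1849 in KO on SD, 865 and 828 in WT on HFD and 1054 and 1165 in KO on HFD. Each group of libraries was separate from the other groups, with HFD below SD in both genotypes and KO above WT on both diets. HFD lowered Casp4 1.55-fold in WT (log2 fold change -0.63, SE 0.15, limma adjusted p = 0.013) and 1.62-fold in KO (-0.70, SE 0.15, 0.048). The interaction was -0.06 (SE 0.21, 0.86). Between genotypes the log2 fold change was 0.45 on SD (SE 0.15, adjusted p = 0.13) and 0.39 on HFD (SE 0.15, 0.062), so neither difference passed. The WT call was lost without the trend (0.089), with the WT HFD libraries averaged to 1 (0.12) and in each of the 4 fits without 1 library (0.058 to 0.12). The KO call was lost in 9 of 13 alternatives, including the 1 with replicate number as a block (adjusted p = 0.092), and without the second KO SD library (0.29), the first KO HFD library (0.059) or the second (0.10), while the fold change itself stayed between -0.77 and -0.63.

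The 250 bases before the RefSeq start of Casp1 and of Casp4 (GRCm38.p6, plus strand) are shown because these neighbours were called in opposite directions with HFD in WT. The Casp1 window is chr9:5298267-5298516 and the Casp4 window is chr9:5308599-5308848.
Casp1: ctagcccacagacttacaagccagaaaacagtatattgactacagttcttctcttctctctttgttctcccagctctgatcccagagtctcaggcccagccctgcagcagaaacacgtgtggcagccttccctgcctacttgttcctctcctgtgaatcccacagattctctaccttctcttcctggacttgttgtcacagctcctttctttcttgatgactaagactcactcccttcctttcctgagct
Casp4: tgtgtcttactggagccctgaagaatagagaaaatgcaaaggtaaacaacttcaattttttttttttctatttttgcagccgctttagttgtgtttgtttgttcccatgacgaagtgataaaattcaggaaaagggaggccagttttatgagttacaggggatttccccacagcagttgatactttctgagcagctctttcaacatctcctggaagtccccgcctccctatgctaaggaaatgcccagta
Promoter windows that reach 50 bases further were matched for 7 of the 8 genes, all but Gsdmd. They were searched on both strands for the letters of the TEAD motif (GGAATG, in 14.7% of 32851 mouse promoter windows of this length), of the AP-1 motif (TGANTCA, in 7.81%) and of the interferon response element (GAAA, any 2 bases, GAAA, in 3.44%). None of these letter strings was in any of the windows (0 matches), which says nothing about binding of the factors.

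Casp12, linked in mice to endoplasmic reticulum stress and to the dampening of inflammasome signalling, had 352 and 403 normalized counts in WT on SD, 335 and 321 in KO on SD, 524 and 530 in WT on HFD and 255 and 228 in KO on HFD. The WT libraries were above the KO libraries on both diets, by a small margin on SD and a wide one on HFD. On HFD, Casp12 was 2.18-fold lower in KO than in WT (log2 fold change -1.12, SE 0.20, limma adjusted p = 0.00091). The call was made under all 12 alternatives and in each of the 4 fits without 1 library, with log2 fold changes of -1.21 to -0.74. On SD the log2 fold change was -0.20 (SE 0.20, adjusted p = 0.67), and the difference between the diets passed the test (interaction -0.93, SE 0.28, 0.038). HFD gave 0.48 in WT (0.0995) and -0.44 in KO (0.30), neither called. The interaction was not called under 6 of 11 alternatives (same total -0.50, 0.24; replicate block 0.061) or in 7 of 8 fits without 1 library, all but the 1 without the first KO HFD library (0.053 to 0.14 where lost). The adipocyte marker sum had the same order of groups on HFD, 384146 and 375938 in WT and 190080 and 95513 in KO, and its part in the lower Casp12 was not tested.

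**Figure D2:**
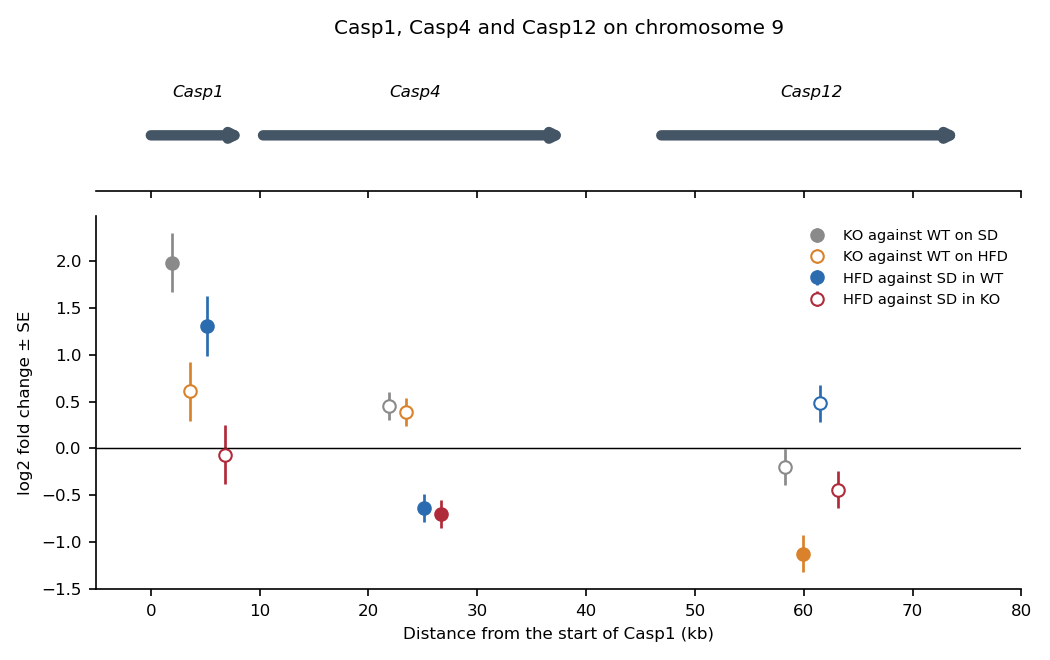
Top, the neighbouring genes Casp1, Casp4 and Casp12 drawn to scale as arrows in the direction of transcription, in kb from the start of Casp1. Bottom, log2 fold change ± SE of each gene in the 4 comparisons, filled where called, side by side above the gene: Casp1 is called higher in KO on SD (1.99) and with HFD in WT (1.31), Casp4 lower with HFD in both genotypes (-0.63 and -0.70) and Casp12 lower in KO on HFD (-1.12).

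The executors of lytic death are the last step of pyroptosis and necroptosis. Gsdmd (ENSMUSG00000022575, chr15:75862339-75867404, plus strand), the gasdermin whose N-terminal part forms the pyroptotic pore, had 120 and 155 normalized counts in WT on SD, 290 and 141 in KO on SD, 39 and 45 in WT on HFD and 241 and 337 in KO on HFD. The libraries of WT on HFD were the lowest of all 8, and those of KO on HFD were above both WT groups, while the genotypes overlapped on SD. On HFD, Gsdmd was 6.67-fold higher in KO than in WT (log2 fold change 2.74, SE 0.36, limma adjusted p = 0.00012), the largest difference among the 8 genes in any of the 4 comparisons of groups. It was called under all 12 alternatives and in each of the 4 fits without 1 library, with log2 fold changes of 2.41 to 3.12. The SD comparison gave 0.57 (SE 0.36, adjusted p = 0.47), ranging from 0.05 to 1.08 when 1 library was left out.

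Diet moved Gsdmd down in WT. HFD lowered it 3.20-fold (log2 fold change -1.68, SE 0.36, limma adjusted p = 0.0087) in WT and gave 0.49 (SE 0.36, 0.55) in KO, and the genotypes differed in this response (interaction 2.17, SE 0.51, 0.016). The WT call was lost without the trend (0.075), with the WT HFD libraries averaged to 1 (0.073) and in each of the 4 fits without 1 library (0.057 to 0.076). The interaction was lost with no filter on low values (0.064), without the trend (0.10), with the averaged libraries (0.067) and in 6 of 8 fits without 1 library (0.054 to 0.067), all but those without the first KO SD or the first KO HFD library. Gsdmd and the macrophage markers moved in the same direction between genotypes on HFD and between diets in WT. The marker sum was lowest in WT on HFD (2858 and 2874) and highest in KO on HFD (40007 and 36888). On SD the marker sum was also higher in KO (35000 and 19872 against 6125 and 5982 in WT), whereas Gsdmd overlapped between the genotypes. Within groups the orders differed, since the library with the higher sum had the higher Gsdmd value in KO on SD (290 against 141) and in WT on HFD (45 against 39) but the lower one in WT on SD (120 against 155) and in KO on HFD (241 against 337). The fibroblast and progenitor marker sum was also lowest in WT on HFD (9037 and 9369) and highest in KO on HFD (34242 and 39075), with 15916 and 13914 in WT on SD and 20473 and 11787 in KO on SD. Within groups it ran in the order of Gsdmd in all but WT on SD. With 2 libraries in a group, such orders are only a description. How much of the Gsdmd RNA came from macrophages or from these cells was not tested.

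**Figure D3:**
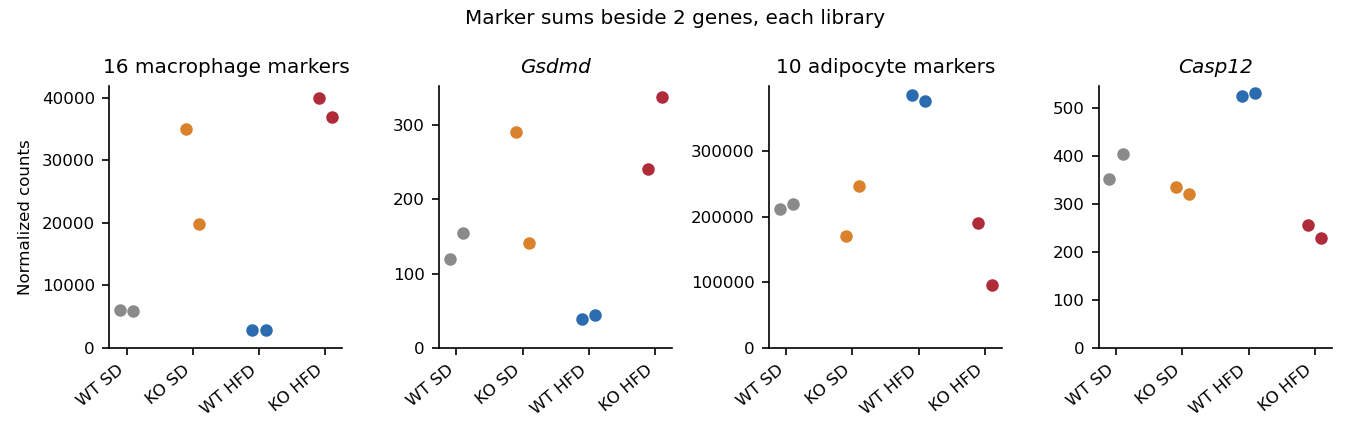
Summed normalized counts of 16 macrophage and 10 adipocyte markers beside the normalized counts of Gsdmd and Casp12, in each library (points), axes from 0. Macrophage markers and Gsdmd are lowest in WT on HFD (2858 and 2874; 39 and 45) and highest on average in KO on HFD, and adipocyte markers and Casp12 are highest in WT on HFD (524 and 530 for Casp12).

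Mlkl (ENSMUSG00000012519, chr8:111311797-111338177, minus strand), the pseudokinase that carries out necroptosis, had 396 and 459 normalized counts in WT on SD, 660 and 790 in KO on SD, 425 and 514 in WT on HFD and 678 and 449 in KO on HFD. Both KO libraries were above both WT libraries on SD, and the genotypes overlapped on HFD, where the KO libraries were far apart. On SD, Mlkl was at a log2 fold change of 0.76 in KO against WT (SE 0.22), which did not pass the test (limma adjusted p = 0.083). Among the HFD libraries it was 0.24 (SE 0.22, 0.44), and -0.06 without the first KO HFD library. Diet gave 0.13 in WT (0.71) and -0.39 in KO (0.43), and the interaction was -0.52 (0.27), so Mlkl was called in none of the 5 tests (0 calls by limma, and 1 unadjusted p under 0.05, that of the SD comparison at 0.0051).

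**Figure D4:**
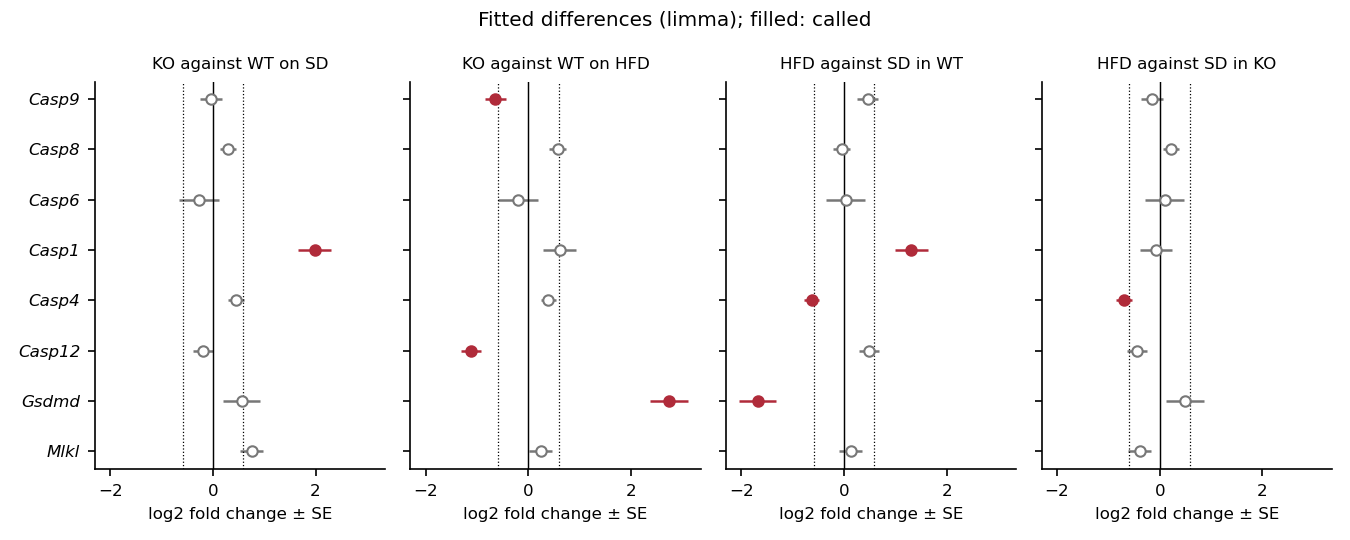
Log2 fold change ± SE of the 8 genes from the limma fit in the 4 comparisons (panels), with dotted lines at the 0.59 limit of a call and filled points where the gene was called. Filled points are Casp1 on SD, Casp9, Casp12 and Gsdmd between genotypes on HFD, Casp1, Casp4 and Gsdmd with HFD in WT, and Casp4 with HFD in KO.

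Counted by comparison, calls among the 8 genes were set against those among all genes tested. Between KO and WT on HFD, 3 of the 8 were called, Gsdmd higher and Casp12 and Casp9 lower, against 32.2% of all genes tested (17.1% higher, 15.1% lower). The groups did not overlap for 6 of the 8 genes, against 69.6% of all genes. Their median log2 fold change was 0.31, against 0.09 over all genes and -0.14 over those with a mean of at least 50. On SD, 1 of 8 was called, Casp1, higher (4.71% of all genes, 3.21% higher), 5 did not overlap (45%) and the median was 0.37 against -0.01. With HFD in WT, 3 of 8 were called, Casp1 higher and Casp4 and Gsdmd lower, against 18% of all genes (8.74% higher, 9.22% lower), 5 did not overlap (65%) and the median was 0.08 against -0.08. With HFD in KO, 1 of 8 was called, Casp4, lower, against 1.07% of all genes (0.383% higher, 0.691% lower), 4 did not overlap (42%) and the median was -0.11 against 0.03. The interaction was called for 2 of 8, Gsdmd and Casp12, against 17.4% of all genes (8.69% with a positive and 8.73% with a negative sign). The counts over all genes moved with single libraries. Leaving out 1 library took them from 202 to between 14 and 961 with HFD in KO, and from 3377 to between 628 and 1400 with HFD in WT. The genotype comparison on HFD and the diet comparison in WT share the libraries of WT on HFD, so Gsdmd being low there enters both. Scaling to equal totals, which raised the median of all genes on HFD from 0.09 to 0.47, also brought Casp8, Casp1, Casp4 and Mlkl past the limits on HFD (0.96, 0.99, 0.77 and 0.62, limma adjusted p = 0.0011 to 0.030).

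Around these 8 genes, other genes of the same pathways were compared between KO and WT on HFD, from a list of 46 of which 44 were in the table and tested. Of these, 18 were called higher and 3 lower, where 17.1% of all genes tested were higher and 15.1% lower. On SD, 6 were higher and 1 lower (4.71% of all genes in both directions). With HFD in WT 4 were higher and 7 lower (8.74% and 9.22% of all genes), and with HFD in KO 1 was higher (0.383%). The interaction was called for 7 with a positive and 4 with a negative sign (8.69% and 8.73%). The counts by role on HFD below stand beside the same 17.1% and 15.1%, and no list was tested against them. Of 9 inflammasome sensors and adaptors, 7 were called higher and 1 lower on HFD. Of 4 adaptors of death receptors and related complexes, 0 were called in limma and 0 had an unadjusted p under 0.05. Differences between these roles were not tested. Casp2, an initiator caspase, had 107 and 56 normalized counts in WT on HFD and 118 and 110 in KO on HFD (log2 fold change 0.55, limma adjusted p = 0.29). Its log2 fold change was 1.01 without the first WT HFD library and 0.090 without the second.

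Upstream of Casp9, Apaf1 encodes the scaffold of the apoptosome. It had 285 and 246 normalized counts in WT on HFD and 668 and 838 in KO on HFD, and rose 2.82-fold (SE of the log2 fold change 0.22, limma adjusted p = 0.00023), opposite in direction to Casp9. It was the only one of 6 apoptosome and mitochondrial factors called. Cycs, which encodes cytochrome c, had 781 and 739 against 1031 and 607 (0.06, adjusted p = 0.88). Upstream of Casp8, the adaptor Fadd had 128 and 102 against 77 and 64 (-0.69, 0.13). Cflar, a caspase-like protein without protease activity that holds Casp8 in check, had 4262 and 4341 against 7342 and 7124 and rose by 0.75 on the log2 scale (SE 0.15, 0.0018).

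Of 6 caspase inhibitors, 3 were called higher on HFD (Birc3, Birc5 and Cflar) and 1 lower. Birc2, a ubiquitin ligase of the death receptor complex, was at 1520 and 1366 normalized counts in WT on HFD, against 611 and 799 in KO (log2 fold change -1.04, SE 0.19, limma adjusted p = 0.0012). Xiap, a direct inhibitor of Casp9, had 2675 and 2510 against 3068 and 3867 (0.41, 0.073), and was called under scaling to equal totals (0.80) and after quantile normalization (0.69). Birc5 is known for its part in cell division as well as for its name as a caspase inhibitor.

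In the necroptosis group, Ripk3 had 142 and 138 normalized counts in WT on HFD and 550 and 698 in KO on HFD (log2 fold change 2.14, SE 0.27, limma adjusted p = 8.2e-05). It encodes the kinase that activates Mlkl, which itself was not called in this comparison. Ripk1, its partner kinase, had 2685 and 2494 against 2433 and 3177 (0.10, adjusted p = 0.65). Zbp1, a nucleic acid sensor that engages Ripk3, had 184 and 78 against 107 and 140 (0.03, 0.96), with a direction that turned under upper-quartile scaling (-0.0048) and quantile normalization (-0.18). In all, 2 of these 4 genes were called higher, Ripk3 and Ticam1.

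**Figure D5:**
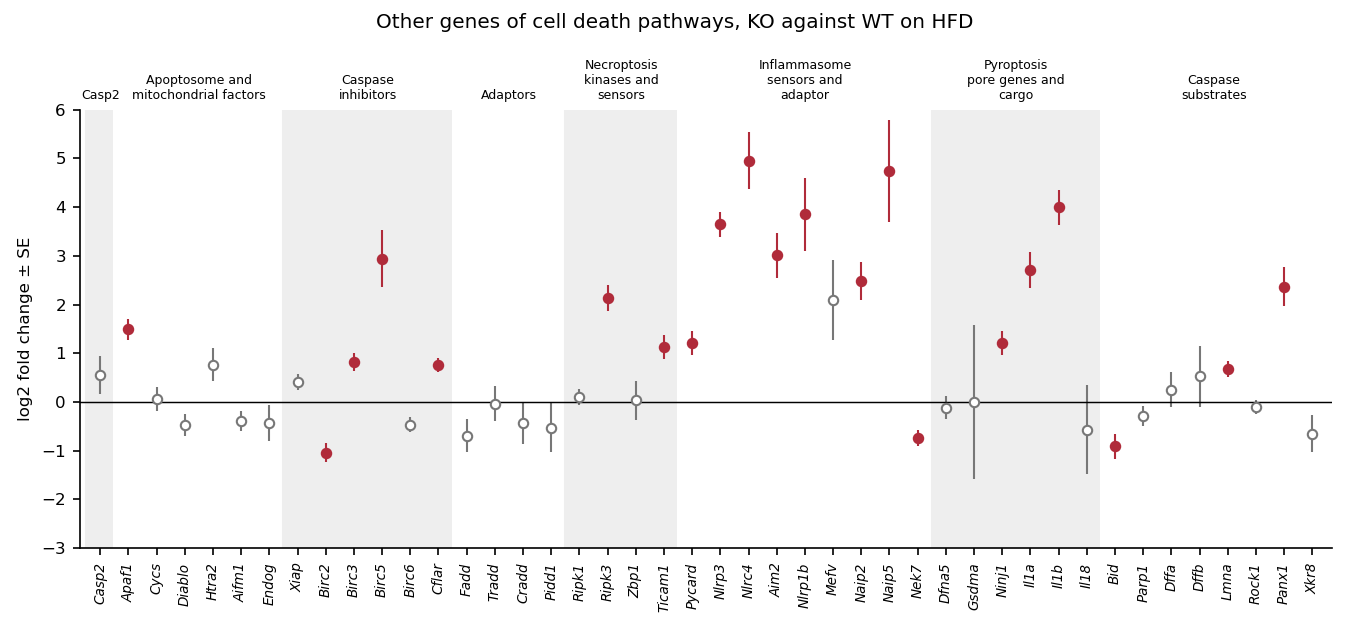
Log2 fold change ± SE (KO against WT on HFD) of 44 other genes of cell death pathways, grouped by role (shaded bands), filled where called. The highest point is the inflammasome sensor Nlrc4 (4.96), and Casp2 and the adaptors lie between -0.69 and 0.55 and are open.

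Before Gsdmd in pyroptosis act the inflammasome genes. Nlrp3, the sensor of the best-known inflammasome, had 202 and 160 normalized counts in WT on HFD and 2359 and 2171 in KO on HFD (log2 fold change 3.65, SE 0.26, limma adjusted p = 8.1e-07). Nlrc4, which senses bacterial proteins with Naip partners, had 6 and 3 against 160 and 167 (4.96, SE 0.58, 4.4e-05), a fold that rests on few reads in WT. Naip5 had 14 and 0 against 104 and 101 (4.74, SE 1.04, 0.0040) and belongs to a family of near-identical copies, so that its counts are uncertain. The call of Naip5 was lost without the trend (adjusted p = 0.057), and its log2 fold change went to 6.69 without the first WT HFD library, to 2.79 without the second and to between 3.06 and 6.43 under other settings. Pycard, the adaptor that joins sensors to Casp1, had 388 and 311 against 620 and 1051 (1.21, SE 0.25, 0.0027). Nek7, a kinase that binds Nlrp3, went the other way, with 2086 and 2323 against 1428 and 1201 (-0.75, SE 0.16, 0.0038). Its call was lost under scaling to equal totals (-0.36, 0.078), after quantile normalization (-0.52, under the fold limit) and without the second WT HFD library (-0.67, 0.062).

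Of 6 genes for pore formation and cargo, 3 were called higher on HFD. Il1b, the cytokine that Casp1 matures, was at 88 and 126 normalized counts in WT, against 1951 and 1469 in KO (log2 fold change 3.99, SE 0.35, limma adjusted p = 4.1e-06). It was also the 1 gene of the list called with HFD in KO, from 691 and 326 on SD (1.83, 0.031). Ninj1, which ruptures the membrane after pore formation, had 315 and 254 in WT and 714 and 602 in KO on HFD (1.21, SE 0.24, 0.0021). Il18, the other cargo of Casp1, had 18 and 12 against 27 and 3 and was too low to tell (-0.57, 0.66). Dfna5, another gasdermin (Gsdme in current naming), had 331 and 301 against 327 and 258 on HFD (-0.12, 0.72, but 0.26 under scaling to equal totals). On SD it had 157 and 132 in WT and 306 and 344 in KO, where it was called higher (1.17, SE 0.23, limma adjusted p = 0.010). It also rose 2.18-fold with HFD in WT (0.0069), and the interaction was -1.29 (0.021). Of 8 caspase substrates, 2 were called higher and 1 lower, Bid, which Casp8 cleaves to reach the mitochondria, with 292 and 296 in WT and 151 and 160 in KO (-0.92, SE 0.26, 0.015). The Bid call was lost under scaling to equal totals (-0.53, 0.13), with the WT HFD libraries averaged to 1 (0.091) and in each of the 4 fits without 1 library (0.051 to 0.090). Between genotypes on SD, log2 fold changes were -0.33 for Ripk3, -0.60 for Pycard, -0.0052 for Apaf1, 0.36 for Nek7 and 0.50 for Bid. None of these was called on SD, and the interaction was called for each (limma adjusted p = 0.0036 to 0.021). Nlrp3, Nlrc4, Birc2 and Il1b were called in the same direction on both diets. The macrophage marker sum differed in the same direction as the inflammasome genes called higher on HFD, with 2858 and 2874 in WT against 40007 and 36888 in KO. Its part in these differences was not tested.

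The patterns of the 8 genes over the libraries were also set beside those of 12093 genes that averaged 50 or more, by Pearson's r of log2(value + 1) over the 8 libraries, which share the 4 groups. Among the members themselves, Gsdmd ran against Casp9 (r = -0.97) and Casp12 (-0.90), Casp9 and Casp12 ran together (0.88), and Casp1 was at 0.22 with Gsdmd and 0.13 with its neighbour Casp4. The most alike genes were Fes, Cecr6 and Col27a1 for Gsdmd (r = 0.99, 0.98 and 0.98), Mtmr3, Fam32a and Tbl2 for Casp12 (0.99 each), 2700060E02Rik, Ppp2r5e and Ntng2 for Casp9 (0.996, 0.985 and 0.984) and C77080, Stap1 and Cic for Casp8 (0.99 each). For Casp1 they were Nhlrc3, Wdr83 and Aldh9a1 (0.99, 0.98 and 0.97), for Casp4 Gm38377, Spry2 and Cadps2 (0.97 each), for Casp6 Vsig10l, Hps4 and Nim1k (0.99, 0.90 and 0.90) and for Mlkl Cox7c, Disp2 and Rmdn2 (0.96, 0.95 and 0.94). With 8 libraries and so many genes, values of this size are a description.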

How the data were processed

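RNA was prepared from isolated epididymal white adipocytes in 4 groups of 2 libraries (WT and Ad-Yap/Taz-KO, SD and HFD, 4 weeks), with ribosomal RNA depletion and a stranded total RNA kit. Per the methods of the study and the submitters' processing notes, reads were trimmed with Reaper, aligned to mm10 (GRCm38) with STAR 2.5.2b and counted on exons with featureCounts 1.5.1, where reads assigned to more than one gene or place were dropped, and the authors tested with DESeq2 1.14.1. The values the authors deposited are a score: whole numbers made from gene counts by scaling each library with a size factor and rounding. How the size factors were computed and whether counting used strand is not given in the sources used here. Rounding keeps whole reads from being recovered, so no count test was run.

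Groups came from the sample labels. The value of 1 read (0.795 to 1.13) was estimated from the spacing of low values, which gave 14.0 to 22.3 M reads on genes. Reads carry no molecular identifiers. Genes with a mean of at least 5 (18800 of 30387) were fitted with limma 3.58.1 in R 4.3.3 (lmFit, contrasts.fit, eBayes with trend) on log2(value + 1) with 4 group means, 4 residual and 8.59 prior degrees of freedom, and adjusted by Benjamini-Hochberg. The contrasts were KO against WT on each diet, HFD against SD in each genotype, and their interaction. The scripts were tested on simulated data. Tables and figures used Python 3.11.15, numpy 2.4.6, pandas 2.3.3 and matplotlib 3.10.9. Of the identifiers, 30259 were found in GENCODE vM21, which gave exons, lengths and overlaps, and promoter windows came from the RefSeq table (GRCm38.p6).

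The 8 genes, the list of other pathway genes and the marker lists were chosen with earlier results of these data known. All 8 genes are named. From the list of other genes, 15 are always named, together with the 3 that rose most and the 3 that fell most among those called between KO and WT on HFD, and the rest are given by counts, except Birc3, Birc5 and Ticam1, which were chosen after their values were seen to spell out small counts. A few genes of the list are not reported here. Alternatives were other pseudocounts (0.1, 8), filters (none, a mean of at least 50), scalings (same total, upper quartile, quantile), fits of the compared groups alone, robust or without trend, a replicate block, WT on HFD as 1 sample, no fold limit, and leaving out each library.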

Additional observations from a re-analysis of the deposited data

Results flagged for a closer look

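The effect of the genotype differed between the diets for Gsdmd and Casp12, by the test of the interaction of genotype and diet in the limma fit. For Gsdmd, the log2 difference between KO and WT was 2.17 larger on HFD than on SD (SE 0.51, adjusted p = 0.016), with 39 and 45 normalized counts in WT on HFD against 120 and 155 on SD, and 241 and 337 in KO on HFD against 290 and 141 on SD. For Casp12 the interaction was -0.93 (SE 0.28, adjusted p = 0.038), with 524 and 530 normalized counts in WT on HFD and 255 and 228 in KO on HFD, against 352 and 403 and 335 and 321 on SD. Both tests include the WT HFD libraries, and with these averaged to 1 sample neither passed (adjusted p = 0.067 and 0.13). No group held enough libraries for a check of single libraries that stand apart.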

How the results depend on the processing

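Of 672 values of the 8 genes under other settings, 578 kept their direction and side of the threshold, 60 lost the call, 8 gained it and 26 turned direction. Called members numbered 3 between genotypes on HFD, 1 on SD, 3 with HFD in WT, 1 with HFD in KO and 2 for the interaction. Scaling to the same total gave 6 on HFD, and moved the median over all genes from 0.09 to 0.47 on HFD, from -0.08 to -0.48 with HFD in WT and from 0.10 to 0.52 for the interaction, with 4617 genes called higher and 1367 lower on HFD against 3213 and 2840. Without the trend, 0 were called on SD, with HFD in either genotype and for the interaction, and with WT on HFD as 1 sample, 0 in both diet comparisons and for the interaction. With HFD in KO, 0 were called also at a pseudocount of 0.1, with no filter, under the other scalings, in the fit of the compared groups and with the replicate block, where limma had given 1 call and 2 unadjusted p under 0.05 (Casp4 and Casp12). The interaction was called for 3 under the filter of 50 or more, for 0 with no filter and for 1 with the same total, quantile normalization or the replicate block. Under the filter of 50 or more the median over all genes turned to -0.14 on HFD, 0.10 with HFD in WT and -0.15 for the interaction. On HFD 2308 genes were then called higher and 2760 lower. Leaving out 1 library gave 2 to 3 on HFD, 1 to 1 on SD, 0 to 1 with HFD in WT, 0 to 1 with HFD in KO and 0 to 2 for the interaction.

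The values that turned direction had not been called. Under the same total, log2 fold changes on HFD were 0.18 for Casp6 and 0.26 for Dfna5, with HFD in WT -0.38 for Casp6 and -0.28 for Mlkl, and the interaction was 0.36 for Casp4 and 0.11 for Wwtr1. Under quantile normalization the interaction was -0.057 for Casp6 and 0.12 for Casp4, and Zbp1 on HFD was -0.18 (-0.0048 with the upper quartile, -0.097 with WT on HFD as 1 sample). Leaving out 1 library gave on HFD -0.49 to 0.079 for Casp6, -0.058 to 0.54 for Mlkl, -0.32 to 0.44 for Cycs, -0.089 to 0.30 for Ripk1, -0.58 to 0.64 for Zbp1, -1.97 to 0.83 for Il18 and -0.29 to 0.051 for Dfna5, and on SD -0.11 to 0.040 for Casp9 and -0.86 to 0.31 for Casp6. It gave with HFD in WT -0.12 to 0.016 for Casp8, -0.55 to 0.61 for Casp6 and -0.0045 to 0.27 for Mlkl, with HFD in KO -0.19 to 0.38 for Casp6, -0.35 to 0.21 for Casp1, -0.025 to 1.01 for Gsdmd, -0.12 to 0.30 for Yap1 and -0.085 to 0.31 for Wwtr1, and for the interaction -0.52 to 0.65 for Casp6 and -0.14 to 0.0077 for Casp4. The cause of these changes was not tested.

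The replicate numbers were not shown to pair libraries (correlations of deviations 0.11 between genotypes on SD, -0.0063 on HFD, 0.028 between diets in WT, -0.30 in KO). With the replicate number as a block, calls over all genes went from 6053 to 5706 on HFD and from 202 to 112 with HFD in KO, and with crossed numbers, chosen after seeing the data, to 700, with 1 member called. Calls with HFD in KO over all genes were 3 with no filter, 1 without the trend, 28 with WT on HFD as 1 sample and 0 in the fit of the compared groups, and the interaction gave 721, 9 and 517 in the first 3 of these against 3274. Leaving out 1 library gave over all genes 381 to 778 calls on SD, 3629 to 5837 on HFD, 628 to 1400 with HFD in WT, 14 (without the second KO SD library) to 961 (without the first) with HFD in KO and 530 to 4249 for the interaction. For the other pathway genes the settings were run between genotypes on HFD only. The count tests planned for recovered reads were not run, since rounding hides whole reads. Depth limits Gsdmd and Casp1 most, with as few as 41.5 and 43.2 reads in a library.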
